A study of Caenorhabditis elegans with 2 samples.

Results

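LIN-15B was mapped at the promoters of small nucleolar RNA (snoRNA) genes in whole L3 larvae of Caenorhabditis elegans by chromatin immunoprecipitation and sequencing (ChIP-seq). The genes were all 346 nuclear genes of biotype snoRNA in the WBcel235 annotation, out of 46890 nuclear genes. Each was scored in a window from 500 bp upstream to 200 bp downstream of its annotated 5' end. The worms were of strain OP184, which carries the integrated transgene wgIs184 for LIN-15B tagged with eGFP in an unc-119(tm4063) III background. The larvae were of mixed sex and their age was given as unknown. There were 2 biological replicates of this single group, and no untagged or mutant group was analysed here. Tissues could not be told apart because whole animals were used. A gene was called bound where the summit of a peak that passed the authors' irreproducible discovery rate (IDR) threshold lay in its window. Signals are the numbers the authors deposited for each peak, and what they were scaled to is unstated here. The IDR list held 3331 peaks with signals from 22.7 to 1188.7 and a median of 53.1. Replicate signals come from the separate list of each replicate and are set beside each other only at the same window. No read counts are given, so the depth is unknown and no depth-based error could be attached to single values.

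SnoRNAs are short nucleolar RNAs that guide chemical changes in ribosomal RNA. Those with boxes C and D direct methylation of the ribose, and those with boxes H and ACA direct conversion of uridine to pseudouridine. Some snoRNAs are cut out of the introns of host genes, often genes for ribosomal proteins or for factors of ribosome assembly, while others are transcribed from promoters of their own. Small nuclear RNA (snRNA) genes have a proximal sequence element upstream of the start that is read by the complex SNAPc. Transfer RNA (tRNA) genes carry an A box and a B box inside the gene, read by the RNA polymerase III factor TFIIIC. The synMuv B proteins, among them LIN-15B, are chromatin regulators known for keeping germline genes off in somatic tissue and for roles in vulval development.

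Upstream letters fell into recurring forms, and the stretches below are shown because most of the genes that carried them were bound. All sequences are the 100 bases before the annotated 5' end, from the RefSeq genome of WBcel235, written 5′ to 3′ on the strand of the gene. The first form is a bipartite element, the letters CGNAACNNG followed after 5 bases by TGTC, which are in capitals. Independent genes are T26A8.6 (chrIV:8428740-8428839, minus strand), C16D9.10 (chrV:8247962-8248061, minus strand), T08B6.64 (chrIV:4880851-4880950, minus strand) and Y53F4B.47 (chrII:15025894-15025993, minus strand). Genes inside introns are C08D8.3 (chrV:8349008-8349107, plus strand), T06D8.11 (chrII:11224082-11224181, plus strand) and F01D5.12 (chrII:14018442-14018541, minus strand). The last lines show genes with no IDR summit, namely F43A11.8 (chrV:11585362-11585461, minus strand) and W07G1.23 (chrII:13946846-13946945, plus strand). T06D8.11, F01D5.12 and W07G1.23 were chosen after their values were seen.
T26A8.6: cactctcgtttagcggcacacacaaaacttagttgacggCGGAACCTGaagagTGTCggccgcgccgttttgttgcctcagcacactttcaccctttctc
C16D9.10: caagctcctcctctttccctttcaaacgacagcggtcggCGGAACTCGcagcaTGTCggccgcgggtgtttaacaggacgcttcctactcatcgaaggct
T08B6.64: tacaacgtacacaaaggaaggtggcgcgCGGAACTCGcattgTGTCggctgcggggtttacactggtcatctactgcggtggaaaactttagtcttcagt
Y53F4B.47: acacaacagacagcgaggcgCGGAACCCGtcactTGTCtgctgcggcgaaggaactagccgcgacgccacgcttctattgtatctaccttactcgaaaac
C08D8.3: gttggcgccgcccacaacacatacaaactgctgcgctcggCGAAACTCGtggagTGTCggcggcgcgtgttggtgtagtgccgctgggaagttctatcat
T06D8.11: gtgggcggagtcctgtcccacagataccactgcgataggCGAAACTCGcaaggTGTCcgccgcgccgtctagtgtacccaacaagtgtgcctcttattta
F01D5.12: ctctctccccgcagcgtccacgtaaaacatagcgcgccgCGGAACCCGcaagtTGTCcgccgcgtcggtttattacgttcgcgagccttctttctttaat
F43A11.8: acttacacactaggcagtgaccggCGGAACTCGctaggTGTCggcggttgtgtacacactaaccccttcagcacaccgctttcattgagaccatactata
W07G1.23: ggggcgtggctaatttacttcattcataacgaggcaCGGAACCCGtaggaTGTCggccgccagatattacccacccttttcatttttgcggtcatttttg

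The second form resembles the promoter of a tRNA gene placed ahead of the snoRNA. It was searched as the B-box-like letters GTTCNANNC, with the A-box-like letters TGGCNNA starting 25 to 70 bases before them where present. Both are in capitals. Independent genes are F12F6.11 (chrIV:11549865-11549964, minus strand) and F32E10.10 (chrIV:7574022-7574121, plus strand). Genes inside introns are Y43F8C.22 (chrV:19643188-19643287, minus strand), T24H7.6 (chrII:6248617-6248716, plus strand) and M106.6 (chrII:10840217-10840316, plus strand). The intronic ones were picked with their values known. M106.6 held the B-box-like letters without the A-box-like ones.
F12F6.11: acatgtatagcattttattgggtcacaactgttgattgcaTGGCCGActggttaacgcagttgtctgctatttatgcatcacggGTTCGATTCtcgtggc
F32E10.10: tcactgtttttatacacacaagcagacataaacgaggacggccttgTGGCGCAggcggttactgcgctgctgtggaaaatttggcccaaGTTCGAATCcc
Y43F8C.22: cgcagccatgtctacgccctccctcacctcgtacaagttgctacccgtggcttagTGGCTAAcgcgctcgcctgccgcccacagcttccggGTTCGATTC
T24H7.6: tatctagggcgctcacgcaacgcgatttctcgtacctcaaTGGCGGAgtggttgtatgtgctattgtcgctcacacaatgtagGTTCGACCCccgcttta
M106.6: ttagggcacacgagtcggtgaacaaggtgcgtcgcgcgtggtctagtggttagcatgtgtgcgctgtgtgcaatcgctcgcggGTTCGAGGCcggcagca

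Neither form was found upstream of M7.15 (chrIV:11083047-11083146, plus strand), the independent gene with the highest signal outside protein-coding promoters.
M7.15: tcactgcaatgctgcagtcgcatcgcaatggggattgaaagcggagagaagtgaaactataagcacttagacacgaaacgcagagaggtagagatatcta

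Of the 346 snoRNA genes, 92 were bound, a share of 26.6% (exact Clopper-Pearson 95% interval 22 to 31.6%). The same window held an IDR summit at 12.7% of the 19973 protein-coding genes and at 7.32% of all nuclear genes. It did so at 17.2% of 612 tRNA genes and 14.7% of 129 snRNA genes. The share at snoRNA genes was therefore above each of these backgrounds. The interval for snRNA genes, 9.11 to 22%, met that for snoRNA genes at its edge. Intervals cover counting error over genes only. Genes are not replicates, and no test was made between gene classes. The 92 bound genes were marked by 92 distinct summits, because 1 summit lay in the windows of 2 genes and C26C6.13 had 2 summits. Few windows overlapped, since the 346 genes formed 326 separate window clusters, of which 91 held a summit.

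**Figure D1:**
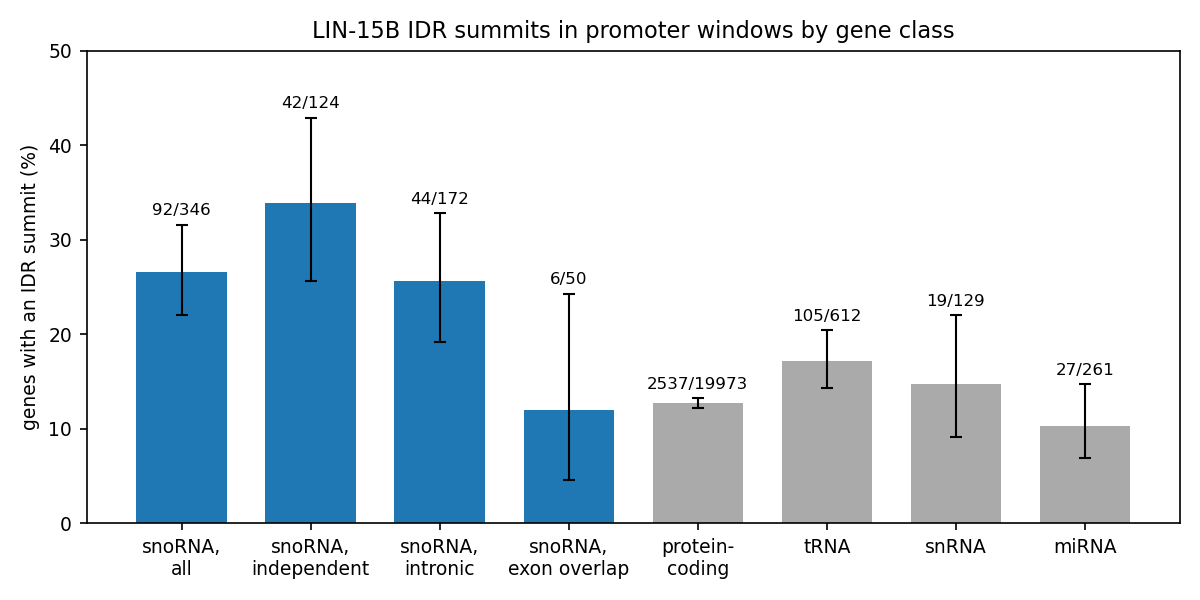
Share of genes with an IDR summit from 500 bp upstream to 200 bp downstream of the 5' end, in percent, by gene class. Bars are shares, error bars are exact 95% Clopper-Pearson intervals over genes, and the numbers give bound genes over all genes of the class. Independent snoRNA genes stood at 33.9% and protein-coding genes at 12.7%.

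By position, 124 snoRNA genes overlapped no protein-coding gene and are called independent. Another 172 lay inside a protein-coding gene and clear of all exons of that host, and are called intronic. The remaining 50 overlapped a protein-coding gene in another way and are called exon-overlapping. Of the intronic genes, 3 also overlapped a second protein-coding gene in that way, C02F5.15 and ZK546.18 among them. Of the independent genes 42 were bound (33.9%, 25.6 to 42.9%). Of the intronic genes 44 were bound (25.6%, 19.2 to 32.8%), and of the exon-overlapping genes 6 (12.0%). The intervals of the independent and intronic groups overlapped. Among intronic genes, 32 of 145 with a host on the same strand were bound (22.1%), and 12 of 27 whose hosts all ran on the opposite strand (44.4%).

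Summits near snoRNA genes can belong to a neighbouring protein-coding promoter, so each was placed against the windows of all protein-coding transcripts. Of all IDR summits, 36.9% lay outside every such window. At snoRNA genes the share was higher: 60 of the 92 bound genes had a summit outside all coding windows, which is 17.3% of the 346 genes (13.5 to 21.8%). These were 29 independent, 29 intronic and 2 exon-overlapping genes. The other 32 had summits in coding windows only. Seen from the list, 4.88% of the 1230 summits outside coding windows lay in a snoRNA window.

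The strongest independent gene outside coding windows was M7.15 on chromosome IV, with a signal of 59.6 in replicate 1, 72.4 in replicate 2 and 132.3 in the IDR list, where the signal equals that of the pooled list. Y17G7B.25 on chromosome II had 35.9 and 59.2 in the replicates and 96.3 in the IDR list. Y74C9A.6, at the left end of chromosome I, had 52.8, 36.0 and 92.6. The order of the replicates thus differed from gene to gene. These 3 genes ranked 558, 856 and 899 in the list, so none was among its highest peaks. F59C6.15, with 43.4, 50.8 and 90.1, and ZK20.9, with 51.2, 37.6 and 87.2, followed.

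T26A8.6 had nearly equal replicate signals, 39.2 and 38.8, and 83.3 in the IDR list. F12F6.11, which carries the tRNA-like form, had 34.3, 26.3 and 62.0. C16D9.10, with box C/D letters in the gene, had 22.6, 33.2 and 55.3. All these summits lay upstream of the snoRNA, at -54, -46 and -5 bp from the 5' end, where negative positions are upstream. The remaining genes named by the rule, F32E10.10, T08B6.64, K02A11.12, K07C10.2, ZK643.9, F25H2.15 and T06C12.16, had IDR signals from 39.0 to 53.1. Among them K07C10.2 stood apart in position, with its summit 120 bp downstream of the 5' end, past the 3' end of this short gene. K02A11.12 stood apart in its replicates, 13.3 against 31.1.

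Intronic snoRNA genes were headed by genes near strong host promoters. F54E7.10 lies in an intron of rps-12, which encodes a protein of the small ribosomal subunit, and had 440.4 in replicate 1, 521.0 in replicate 2 and 960.8 in the IDR list, rank 7. H06I04.9 in ubl-1, a ubiquitin-like ribosomal protein fusion gene, had 191.8, 240.2 and 430.3. Y24D9A.9 in rpl-7A, a large-subunit protein gene, had 138.9, 164.0 and 304.2. These summits lay at -248, -384 and -348 bp from the snoRNA 5' end and inside coding windows, those of rps-12 and ska-3, of ubl-1, and of rpl-7A and set-21. B0041.9 in rpl-4, D1007.20 in rpl-24.1 and F28C6.11 in rpl-26 showed the same arrangement, with summits at -402 to -471 bp and IDR signals from 101.9 to 243.1. K07C5.11 lies in nol-56, which encodes a core protein of box C/D particles, and its summit at -387 bp, signal 227.5, was the summit of the nol-56 promoter.

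A second set of intronic genes had summits at the snoRNA itself. C08D8.3, in an intron of C08D8.1, had 42.7 in replicate 1, 39.5 in replicate 2 and 82.5 in the IDR list, with the summit at -29 bp. T06D8.11 in plpr-1 had 36.1, 38.2 and 72.0 at -6 bp. F01D5.12 in F01D5.10 had 27.4, 38.1 and 68.1 at -7 bp. None of these summits was in a coding window. All 29 intronic genes with summits outside coding windows had them between -80 and 101 bp, with a median of -29 bp. The 15 intronic genes with summits in coding windows only had a median of -203 bp and reached -471 bp. Since a coding window was assigned by distance to a coding 5' end, distance to the snoRNA is not independent of that split. Of the named intronic genes, Y37E3.20, in pcyt-2.1, combined the features, with its summit at -20 bp yet within the coding window of its host (33.3, 45.6 and 79.2). C02F5.15, an intronic gene of rfs-1, had its summit at -203 bp in the window of the F-box gene fbxl-1 (38.6, 53.5 and 89.6).

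Independent genes whose summit also lay in a coding window were led by F37F2.4, next to F37F2.2, with 98.3 in replicate 1, 125.4 in replicate 2 and 223.6 in the IDR list. Y53F4B.47, next to the cap methyltransferase gene cmtr-1, had 103.5, 116.7 and 220.1. F09G2.14, next to F09G2.2, had 87.2, 129.1 and 217.4. All 3 exceeded every independent gene outside coding windows. D2021.6 stood next to sdha-1, which encodes a succinate dehydrogenase subunit (51.6, 57.1 and 110.8), and C36E8.11 next to tif-1A, named for an RNA polymerase I initiation factor (58.2, 49.0 and 108.4). K04D7.17 beside rack-1, Y53F4B.48 beside gst-27, Y75B12B.12 beside Y75B12B.11, K02C4.8 beside K02C4.2 and M03D4.78 beside zen-4 had IDR signals from 31.0 to 70.2. Whether such a summit belongs to the snoRNA or to the coding gene cannot be told apart from its position.

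Peaks at snoRNA genes were of ordinary height. The 92 summits had a median signal of 44.2, against 53.1 over the whole list, and a median rank of 1961.5 of 3331. Those outside coding windows had a median of 37.8, close to 38.4 for all 1230 summits outside coding windows. Those in coding windows had a median of 69.4, against 65.9 for all 2101 summits in coding windows. The lowest were T10B9.11 with 22.8, T24H7.6 with 23.3 and C01B10.48 with 23.4, just above the end of the IDR list. Just below it, in the pooled list only, were F43A11.8 with 21.9, C14C10.8 with 21.8, and ZK484.11 and ZK546.18 with 21.0 each. F47G4.9 followed with 18.6.

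Summits lay nearer to the annotated 5' end than at coding genes. The highest summit per bound snoRNA gene had a median position of -43 bp, with quartiles of -75.5 and -18 bp. Over the 2537 bound protein-coding genes the median was -178 bp, with quartiles of -280 and -106 bp. At 73 of the 92 snoRNA genes (79.3%) the highest summit lay within 100 bp of the 5' end, against 580 of the 2537 protein-coding genes (22.9%). TRNA and snRNA genes shared this, with 90 of 105 bound tRNA genes (85.7%) and 19 of 19 bound snRNA genes. MicroRNA (miRNA) genes did not, since of 27 with an IDR summit in the window 6 had one within 100 bp. Many worm coding transcripts are trans-spliced, so their annotated 5' ends can lie downstream of the initiation site. The part of this in the difference between snoRNA and coding genes was not tested. Independent and intronic genes were alike in this, with 33 of 42 and 35 of 44 within 100 bp. Of the 92 peaks, 70 had the list's fixed width of 310 bp, with the summit at the midpoint of that interval. How the interval and the summit were set is unstated, so the resolution of these positions is unknown.

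**Figure D2:**
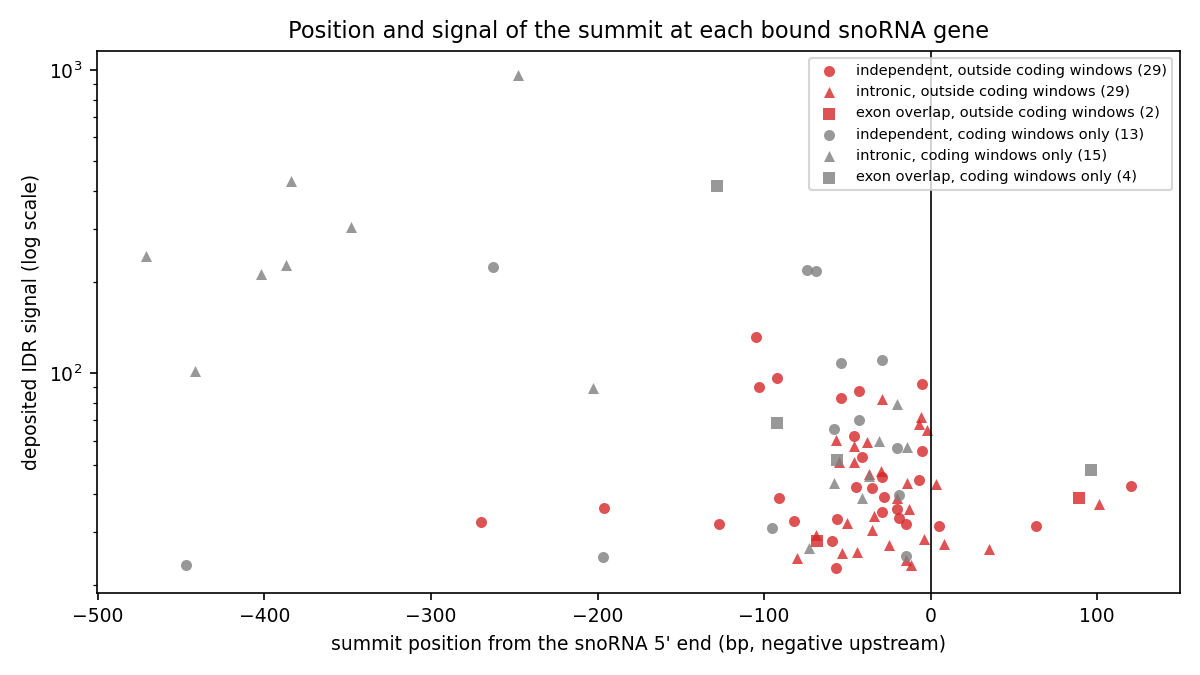
Position of the summit from the snoRNA 5' end in bp, negative upstream, against the deposited IDR signal on a log axis, 1 point per bound gene. For genes with a summit outside coding windows the highest such summit is shown, in red, and for the others the highest summit, in grey. Circles are independent, triangles intronic and squares exon-overlapping genes. The red triangles lie between -80 and 101 bp, and the grey triangles reach -471 bp and a signal of 960.8.

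Both replicates held entries at every bound gene. The bound genes were chosen through the IDR threshold, which rests on agreement between replicates. Agreement at these genes is thus partly set by that choice. The replicate 1 signal of the 92 genes ran from 7.92 to 440.4 with a median of 21.9, and that of replicate 2 from 7.72 to 521.0 with a median of 24.0. The log2 ratio of replicate 2 over replicate 1 had a median of 0.20 and an SD of 0.52 over the 92 genes, beside 0.26 and 0.55 over 2522 protein-coding genes. The ratios ran from -1.05 to 1.78. The highest was at C26C6.13, where the replicate 1 entry lay at -182 bp and the replicate 2 entry at 32 bp. That ratio therefore compares different places in the window. In lists cut to the 3331 highest entries of each replicate, 89 snoRNA genes had a summit in replicate 1 and 85 in replicate 2, and 76 had one in both.

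**Figure D3:**
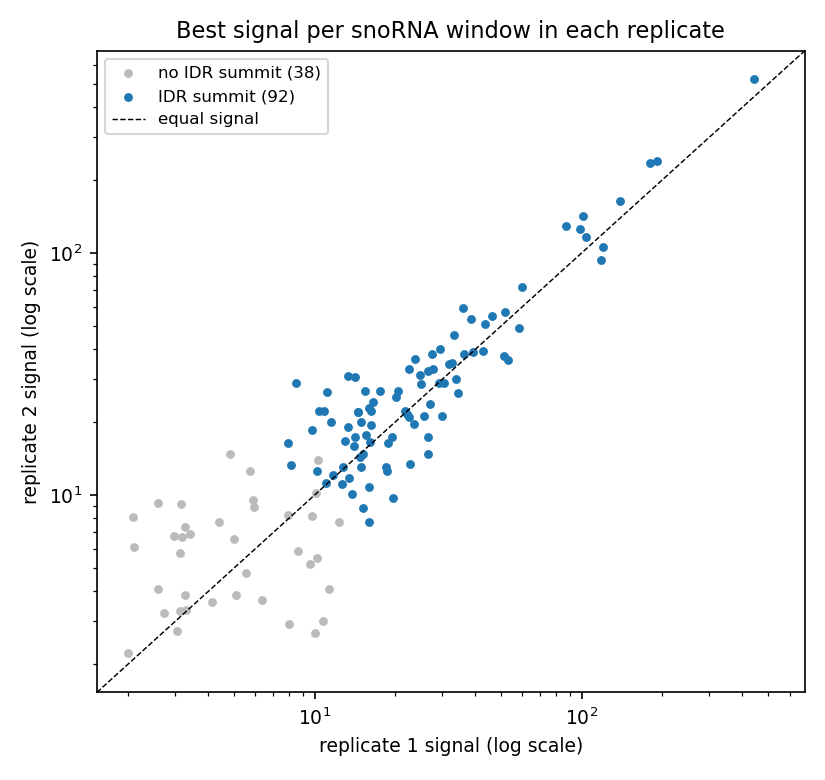
Highest signal in the window of each snoRNA gene in replicate 1 and replicate 2, both on log axes, for the 130 genes with an entry in both. Blue points are the 92 genes with an IDR summit, grey points the 38 without, and the dashed line marks equal signal. The blue points lie along the line over the whole range, with a median log2 ratio of 0.20.

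Weaker entries were common. The pooled list of 30000 entries, deposited as peaks and background, had a summit in the windows of 186 snoRNA genes (53.8%, 48.3 to 59.1%), against 33.4% of protein-coding genes. At 94 of these genes there was no IDR summit, and their highest pooled signals ran from 3.29 to 21.9 with a median of 6.08. F43A11.8, at the top of this range, had 10.3 in replicate 1 and 14.0 in replicate 2. C14C10.8 had 4.8 and 14.8, and ZK546.18 had 12.3 and 7.71. In C14C10.8 replicate 2 was the higher and in ZK546.18 replicate 1. The remaining 160 genes had no pooled summit.

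The bipartite element was present within 150 bases upstream, on the strand of the gene, at 32 of 346 snoRNA genes (9.25%, 6.41 to 12.8%). Its start lay in a narrow range, from -83 to -57 bp with a median of -61.5 bp. On the other strand no snoRNA gene held it. The same letters occurred upstream of 30 of 129 snRNA genes (23.3%) at a median of -62 bp, of 5 of 19973 protein-coding genes (0.0250%) and of 0 of 612 tRNA genes, which allows a share of up to 0.601% at the upper limit of the exact interval. Of the 32 snoRNA genes, 21 were bound (65.6%, 46.8 to 81.4%). They comprised 9 of 16 independent and 12 of 16 intronic genes, and 17 of the 21 had summits outside all coding windows. A further 7 had a pooled summit only, with signals from 3.85 to 21.9. The median IDR signal of the 21 genes was 55.3, with a range of 24.6 to 220.1.

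The B-box-like letters started within 150 bases upstream of 40 of 346 snoRNA genes (11.6%, 8.39 to 15.4%), at a median of -14 bp, so that they lay next to the snoRNA. They were found upstream of 14 of 129 snRNA genes (10.9%, 6.06 to 17.5%), about the snoRNA share, of 4.60% of miRNA genes and of 2.29% of protein-coding genes, and on the other strand of 7 snoRNA genes (2.02%). Inside the gene they were present in 587 of 612 tRNA genes (95.9%). The A-box-like letters preceded them at 21 of the 40 snoRNA genes. None of the 40 stretches overlapped an annotated tRNA gene, and no snoRNA gene held both forms. Of the 40, 24 were bound (60%, 43.3 to 75.1%), with 8 of 13 independent, 14 of 24 intronic and 2 of 3 exon-overlapping genes. Of these, 20 had summits outside all coding windows. Their median IDR signal was 40.9, with a range of 22.8 to 89.6. The range began at the lowest signal of any bound snoRNA gene, and with the 1665 highest peaks of the list alone 6 of the 24 were still called, against 11 of the 21 with the bipartite element.

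Of the 274 genes with neither form 47 were bound (17.2%, 12.9 to 22.1%), with 25 of 95 independent, 18 of 132 intronic and 4 of 47 exon-overlapping genes. Outside coding windows the count was 23 (8.39%). Both interval ranges of the genes with an element thus lay above that of the genes with neither. The letters of both forms were chosen after the sequences of bound genes had been read, so these shares are a description and no test was made. Because the search was exact, genes with near matches count as neither. With 1 mismatch allowed, 188 genes matched the B-box-like letters, 56 of them bound (29.8%), which is near the 26.6% of all snoRNA genes. The bipartite element was then matched by 40 genes, 22 of them bound (55.0%).

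**Figure D4:**
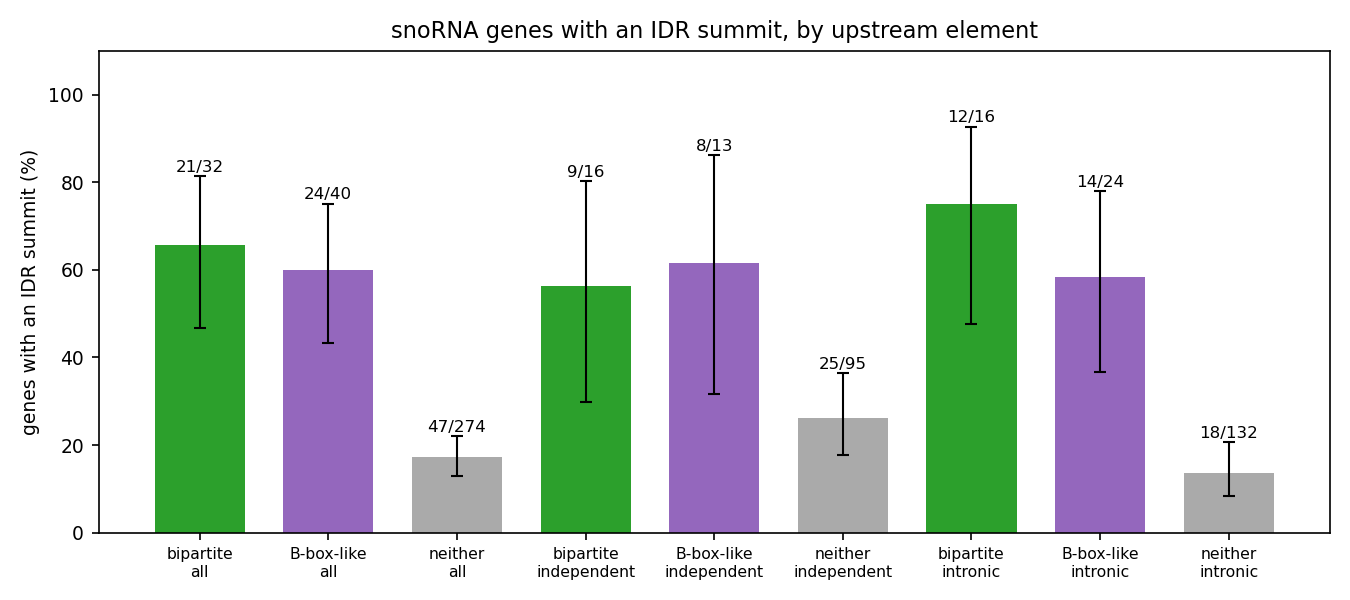
Share of snoRNA genes with an IDR summit, in percent, by the letters found upstream, for all genes and for independent and intronic genes. Bars are shares with exact 95% Clopper-Pearson intervals over genes, and the numbers give bound genes over all genes. Genes with the bipartite element stood at 65.6%, with the B-box-like letters at 60% and with neither at 17.2%.

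Summits lay close to the elements. At the 21 bound genes with the bipartite element the highest summit was between -103 and -2 bp, median -29 bp, between the element and the 5' end at most genes. At the 24 genes with the B-box-like letters it was between -203 and 35 bp, median -37.5 bp, which is upstream of the letters' median start. C02F5.15 gave the value of -203 bp. At the 47 bound genes with neither form the positions were wider, with quartiles of -162 and -28.5 bp.

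**Figure D5:**
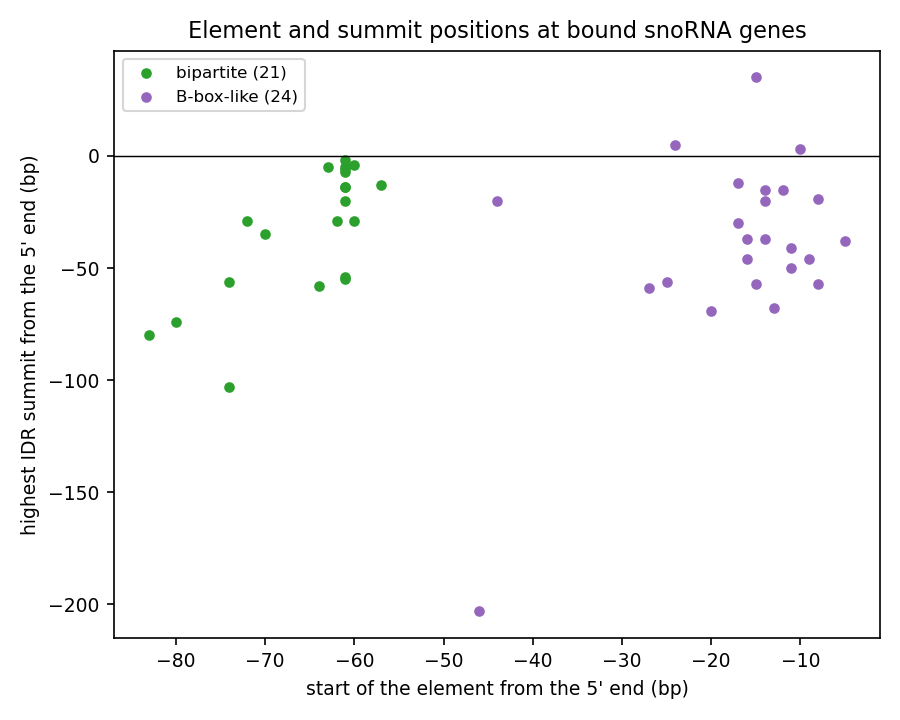
Start of the upstream element against the position of the highest IDR summit, both in bp from the snoRNA 5' end, for the 21 bound genes with the bipartite element and the 24 with the B-box-like letters. Bipartite elements start at -83 to -57 bp, and 1 B-box gene has its summit at -203 bp.

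Not every copy of the bipartite element was bound. W07G1.23, printed above, had no entry in any list, and neither had K02F6.11. The most alike of the unbound members were a pair on chromosome IV, 1 independent and 1 in an intron of pkd-2, whose 100 upstream bases were 89.9% identical without gaps. They had weak entries of 2.78 and 3.61 in replicate 1 and none in replicate 2. Among the 11 unbound genes 5 were at least 75% identical to another member with the element, and among the 21 bound genes 3 were. Whether reads could be placed uniquely at these copies was not tested. GC content also moved with binding: over the 100 bases upstream and the first base of the gene its median was 57.4% at bound and 51.5% at unbound genes with the bipartite element, 55.4 and 47.5% with the B-box-like letters, and 51.5 and 39.6% with neither. The part of base composition in the calls was not tested.

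Of the snRNA genes with the bipartite element, 8 of 30 were bound (26.7%, 12.3 to 45.9%), and of those without it 11 of 99 (11.1%, 5.68 to 19.0%). These intervals overlapped. The interval for these 30 genes lay below that for the 32 snoRNA genes, 46.8 to 81.4%. The letters were chosen after bound snoRNA genes had been read, which may favour the snoRNA share, so this comparison is a description. The snRNA genes include near-identical copies, and whether their reads could be placed uniquely was not tested.

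Other letters were counted on both strands within 50 bp of the summits. GAGAGA was within 50 bp of 13% of the summits at snoRNA genes and of 26.9% of all 3331. GCGCGC was at 15.2 and 10.1%, the E2F-like letters TTGGCGC or TTCCCGC at 5.43 and 7.78%, TATAAA at 4.35 and 3.78%, and GGGCGG at 8.70 and 5.97%. At the 254 unbound snoRNA genes, in windows of the same length centred 50 bp upstream, GAGAGA was present at 7.87%, GCGCGC at 1.57%, the E2F-like letters at 3.15%, TATAAA at 12.6% and GGGCGG at 2.36%. GAGAGA was therefore less common at snoRNA summits than over the list, with 12 summits behind its share. Within 100 bp it was present at 30.4% of the snoRNA summits and 41.3% of all. TATAAA rested on 4 summits, and within 100 bp its shares at bound and unbound snoRNA genes came close, 14.1 and 15.4%.

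The 172 intronic snoRNA genes lay in 154 host genes. Of these hosts, 61 had an IDR summit in the window of at least 1 transcript (39.6%), against 13.5% of protein-coding genes scored the same way. The host count is not independent of the snoRNA calls, since an inner transcript of a host can start beside the snoRNA. Without summits within 100 bp of a held snoRNA it was 56 (36.4%), a count added after seeing the data. By symbol, 13 hosts encode ribosomal proteins, and 12 of them had a summit. The 19 snoRNA genes in these 13 hosts were bound in 5 cases, none of them by a summit outside coding windows. At 14 of the 44 bound intronic genes the highest summit lay in a promoter window of the gene's own host.

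Genes for the proteins of snoRNA particles were scored as well, from a list of 11 symbols. The symbol gar-1 matched a gene that does not encode a particle protein, so the 11 include a gene from outside the set. Of the 11 matched genes, 9 had an IDR summit, gar-1 not among them, against 12.7% of all protein-coding genes. With a window starting 200 bp upstream 5 did, against 7.14%. fib-1, which encodes the methyltransferase fibrillarin of box C/D particles, had 222.1 in replicate 1, 236.4 in replicate 2 and 462.7 in the IDR list, rank 59. The other box C/D core genes nol-56, nol-58 and snu-13 had IDR signals of 227.5, 200.1 and 176.5. All 4 box C/D genes were therefore called. Of the box H/ACA genes, nhp-2, which the annotation gives as Y48A6B.3, had 312.2 and the pseudouridine synthase gene dkc-1 86.7. nola-3 had a pooled entry of 4.91 with a signal in replicate 1 only, 2.89. The gene matched by the symbol gar-1, on chromosome X, had no entry in any list. It is not the box H/ACA gene that was meant, Y66H1A.4, which was therefore not scored. The assembly ATPase genes ruvb-2 and ruvb-1 had 274.7 and 50.1, and the nucleolar factor gene dao-5 had 130.0. Signals at these coding promoters thus ran above those at the snoRNA genes outside coding windows, which reached 132.3, in 6 of the 9 genes.

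Bound genes were found on every chromosome, with 21 of 74 on I, 20 of 71 on II, 12 of 54 on III and 17 of 59 on IV. There were 20 of 55 on V (36.4%, 23.8 to 50.4%) and 2 of 33 on X (6.06%, 0.743 to 20.2%). The share of all genes bound on each chromosome is not given here, so these counts cannot be read as particular to snoRNA genes. The X-linked genes were D2021.6 and W01H2.11, the second with 15.6 in replicate 1, 17.7 in replicate 2 and 31.5 in the IDR list at 63 bp downstream of the 5' end. W01H2.11 was chosen after its values were seen. By letters inside the gene, 15 genes were box C/D-like, with TGATGA in the first 25 bases and CTGA in the last 25, and 9 of them were bound. Another 96 were box H/ACA-like, with ACA ending within 6 bases of the 3' end, and 27 of them were bound. Of the 235 with neither pattern 56 were bound. The bipartite element was at 5 of 15 C/D-like genes, 1 of 96 H/ACA-like genes and 26 of 235 with neither pattern. The B-box-like letters were at 4, 16 and 20.

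The gap between snoRNA and coding genes differed by list and window. With the 1665 highest peaks, 36 snoRNA genes were called (10.4%) against 8.22% of protein-coding genes. With a window starting 200 bp upstream the shares were 23.4 and 7.14%, and with one starting 1000 bp upstream 34.7 and 15.4%. Replicate 1 alone gave 25.7 and 12.3%, and replicate 2 alone 24.6 and 12.6%.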

How the data were processed

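Peak lists in build ce11 were used as deposited. Per the deposited text records, the authors called peaks in each replicate and in the pooled replicates against a control and thresholded them by IDR. Caller, aligner, versions and threshold are unstated in those records. The signal column is taken as deposited by the authors, and the deposited −log10 q-value was used only for 1 alternative. Summits are the peak start plus the deposited summit offset, 1-based. The ce10 lists were not used. The labels list a size range of 150 to 350 bp.

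Genes came from Ensembl release 115 for WBcel235, the assembly of ce11, and all peaks ended within its chromosomes. Intronic genes lay wholly inside a protein-coding gene and clear of its exons on either strand. Shares have exact 95% Clopper-Pearson intervals. No test was made, as there is 1 group and genes are not replicates. The members, gene lists, windows and letters were chosen with earlier results of these data known. Where replicates are compared, the spread is between 2 samples and depth is unknown. Named genes were, by IDR signal, up to 15 independent genes with summits outside coding windows, 10 intronic and 10 other independent genes, the 5 highest with a pooled summit only, their hosts or coding neighbours, and the particle proteins. Others are marked. Alternatives were other windows (200 and 1000 bp upstream), the 1665 highest peaks, each replicate alone, interval overlap of at least 1 bp, merged windows, same-strand hosts and 100 bp motif windows. Further alternatives, for the element letters, replicate ratios and box classes, were added after seeing the data. Scripts were tested on simulated data with planted summits and letters. Versions were scipy 1.17.1, numpy 2.4.6 and matplotlib 3.10.9, run in Python 3.11.15.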

Additional observations from a re-analysis of the deposited data

How the results depend on the processing

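Of 84 alternative values, 63 stayed near the reported one and 21 did not, where near means within 1.5 times for counts and within the 95% interval of the reported median or share otherwise. With the 1665 highest peaks, the bound genes fell to 36 (36 summits), with 16 independent, 8 independent outside coding windows and 18 intronic genes. The median signal was then 88.4 and the median position -55.5 bp, and the genes with the bipartite element, the B-box-like letters or neither numbered 11, 6 and 19. The lower counts and the higher signal follow from the list, since fewer and higher peaks are counted, and the cause of the position shift was not tested. With a window starting 1000 bp upstream there were 68 intronic genes and 74 with neither form, and the median position was -57 bp. With one starting 200 bp upstream 30 host genes were called (19.5%), against 7.61% of protein-coding genes scored by any transcript. With that window 5 particle protein genes were called, against 7.14% of protein-coding genes scored at the gene 5' end. Pooled entries at the highest q-value marked 102 genes. Within 100 bp of the summit, GAGAGA was at 30.4%, GGGCGG at 20.7% and TATAAA at 14.1%. With 1 mismatch allowed, an alternative added after seeing the data, 56 bound genes matched the B-box-like letters and 14 matched neither form. The replicate lists alone gave 89 and 85 bound genes. No paired analysis was possible because there is 1 group. The unknown depth limits what an absent entry shows.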

Other observations

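The bipartite letters were also sought over the whole nuclear genome on both strands, and 731 matches were found. Of these 34 had an IDR summit within 100 bp (4.65%, exact 95% interval 3.24 to 6.44%). Among the 32 matches ahead of snoRNA genes the count was 21, among the 28 ahead of snRNA genes 7 (25%), and among the 25 ahead of other genes 2 (8%). The 2 others lie ahead of rpr-1, which is annotated as a non-coding RNA and had an IDR signal of 26.6, and of ZK265.11, also non-coding, with 47.4. Of the 646 matches with no annotated gene within 150 bp downstream, 4 had a summit (0.619%). Some of the 646 lie in close pairs on opposite strands, such as chrI:5914881-5914898 and chrI:5914973-5914990. Whether reads could be placed uniquely at the 646 matches was not tested. The letters were chosen after the sequences of bound snoRNA genes had been read, so these shares are a description. The 4 matches with a summit include chrIII:8250439-8250456, with an IDR signal of 81.1 in a coding window of knl-1, and chrIV:13893349-13893366 inside lin-66, with 26.1. The others are at chrIV:4747791-4747808 inside tctn-1 and in its coding window, with 28.1, and at chrV:15029132-15029149 inside cng-1, in coding windows of cng-1 and F14H8.8, with 24.3. These places were chosen after their values were seen, and no transcript from them was measured here.

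The snoRNA gene R151.11, in an intron of rpl-6, had a replicate 1 summit with a signal of 108.3 at the outer edge of its window, at -500 bp, and no entry in the IDR list within the window. Its host rpl-6 had an IDR summit with a signal of 245.3 at -336 bp from the rpl-6 5' end. Whether the replicate 1 entry belongs to that peak was not tested. R151.11 is counted as unbound.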
